A study of Mus musculus with 16 samples.

Results

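Cyr61, Ctgf, Ankrd1, Tnfrsf12a, Amotl2, Ajuba and Lats2 are 7 mouse genes known as targets of the transcriptional co-activator YAP and its DNA-binding partners, the TEAD factors. They were picked by gene symbol from the 54532 genes of a bulk RNA sequencing table of inguinal white adipose tissue (iWAT). The set was chosen by earlier results of these same libraries, in which Cyr61 had the largest rise of any gene whose PH20_TG and PH20_WT values did not overlap. The PH20 values of the members are therefore a description and carry no test.

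YAP and its relative TAZ carry mechanical information to the nucleus. On stiff or stretched substrates, with actin tension high, they enter the nucleus and bind TEAD factors at target genes. Under low tension, or at high cell density, the kinases LATS1 and LATS2 phosphorylate them and hold them in the cytoplasm. Several targets act back on this pathway, and Lats2, Amotl2 and Ajuba encode regulators of it. Cyr61 and Ctgf encode secreted matricellular proteins, and both are also known as fast-responding genes that serum or stress can induce. In adipose tissue the pathway has been studied for its part in precursor cells, in fibrosis and in the response of fat cells to stretch.

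The libraries came from male mice that were 8 to 10 weeks old when the experiment began. All 4 groups had 4 libraries each, and every mouse carried Apn-rtTA and ate chow with 200 mg/kg doxycycline for 5 days. Apn-rtTA makes the doxycycline-activated factor rtTA from the adiponectin promoter, which is active in adipocytes. Apn-Has2 mice (Has2_TG) also carried TRE-Has2, encoding a synthase of the matrix glycan hyaluronan (HA). Apn-PH20 mice (PH20_TG) instead carried TRE-PH20, a Spam1 cDNA encoding a hyaluronidase that digests HA. Has2_WT and PH20_WT were the respective Apn-rtTA littermates without the second transgene. The labels number the libraries 1 to 4 in each group and do not say whether a library is 1 mouse, so p-values measure only the spread between these libraries.

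Depth was between 14421692 and 26751729 reads assigned to genes. The unit throughout is FPKM, fragments scaled by gene length and by library size. Has2 was at 0.417 to 0.806 FPKM in Has2_WT and at 1.86 to 3.24 FPKM in Has2_TG, without overlap. Spam1 had 6, 12 and 5 reads in PH20_TG2, PH20_TG3 and PH20_TG4 and 0 reads in the library labelled PH20_TG1, as in the 12 libraries of the other groups. The transgene was thus not detectable at this depth in the library labelled PH20_TG1, and the PH20 values of the members are given with and without it. That library and PH20_TG4 also held the highest Has2 FPKM of the 16, at 3.32 and 3.26, against 0.38 in PH20_TG2 and 0.0990 in PH20_TG3. Adipocyte markers were present throughout, with a score of 8.02 to 9.54, where a score is the mean log2(FPKM + 0.1) of a gene list in a library. Skeletal muscle and B cell markers varied widely, with scores from -2.04 to 5.83 and from -2.14 to 5.27.

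Promoter sequences show where the letters that TEAD factors recognise lie in the members, which were picked as TEAD targets in the first place. RefSeq records were found for 7 of the 7 members, and 6 of them had promoter windows in the table used here, each from 250 bases before the gene's start to 50 bases after it. The 250 bases before the start are shown 5′ to 3′ on the gene's strand for 4 members. Of these, Cyr61 had PH20_TG values carried mainly by 2 libraries, and Ankrd1 had reads mainly from the library labelled PH20_TG1. The others are Tnfrsf12a, which was high in all 4 PH20_TG libraries, and Amotl2, the most highly expressed member. Capitals mark GGAATG or CATTCC, the TEAD recognition letters on either strand. The windows lie at chr3:145649986-145650235 (minus strand) for Cyr61, which RefSeq names Ccn1, at chr19:36119845-36120094 (minus strand) for Ankrd1, at chr17:23677450-23677699 (minus strand) for Tnfrsf12a and at chr9:102717554-102717803 (plus strand) for Amotl2, on the RefSeq annotation of GRCm38.p6.
Cyr61: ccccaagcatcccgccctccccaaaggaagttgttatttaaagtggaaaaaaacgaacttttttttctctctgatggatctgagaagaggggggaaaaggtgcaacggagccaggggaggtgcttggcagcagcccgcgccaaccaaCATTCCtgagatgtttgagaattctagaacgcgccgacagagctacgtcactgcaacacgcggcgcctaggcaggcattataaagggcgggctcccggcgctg
Ankrd1: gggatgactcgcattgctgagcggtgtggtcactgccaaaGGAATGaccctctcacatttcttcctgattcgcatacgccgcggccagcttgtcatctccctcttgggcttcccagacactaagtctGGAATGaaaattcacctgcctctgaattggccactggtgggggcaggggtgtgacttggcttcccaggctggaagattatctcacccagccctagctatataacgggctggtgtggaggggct
Tnfrsf12a: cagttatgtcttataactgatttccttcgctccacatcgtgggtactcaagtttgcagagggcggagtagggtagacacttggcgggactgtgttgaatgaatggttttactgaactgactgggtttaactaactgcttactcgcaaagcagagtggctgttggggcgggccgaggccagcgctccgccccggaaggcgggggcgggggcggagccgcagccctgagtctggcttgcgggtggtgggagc
Amotl2: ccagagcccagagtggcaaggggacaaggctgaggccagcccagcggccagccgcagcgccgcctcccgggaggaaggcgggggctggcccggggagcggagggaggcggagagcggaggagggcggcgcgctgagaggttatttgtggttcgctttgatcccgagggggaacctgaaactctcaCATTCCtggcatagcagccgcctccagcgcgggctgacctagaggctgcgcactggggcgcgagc

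The TEAD letters occurred in a window of 5 of the 6 members, beside 14.7% of the 32817 RefSeq windows of this length. Nothing is read from that count, since the genes were chosen as targets of these factors. In Cyr61 the match began 103 bases before the start. Ankrd1 had 2 matches, 210 and 123 bases before the start, and Amotl2 had 1 match, 65 bases before it. Ajuba had 2 matches, 186 and 164 bases before the start, and Lats2 had 1 match, in 1 of its 2 windows, just after the start. Tnfrsf12a was the member without these letters. The AP-1 letters TGANTCA, bound by Fos and Jun proteins, were in 0 of the 6 members' windows and in 7.81% of all windows. The CArG box, bound by the serum response factor SRF, was in 0 of 6 and in 1.63% of all windows. A match is a stretch of letters and not evidence of binding, and windows of this length leave out distal enhancers.

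The members differed widely in level. Over the 16 libraries the median level was highest for Amotl2, at 43.9 FPKM, followed by Cyr61 at 8.19, Ajuba at 5.78, Tnfrsf12a at 4.96, Lats2 at 4.66 and Ctgf at 1.43 FPKM. Amotl2 stood above every other member in all libraries but the one labelled PH20_TG1 and PH20_TG4, where Cyr61 was higher, while Ajuba, Tnfrsf12a and Lats2 had overlapping ranges. Ankrd1 had no read in 12 of the 16 libraries. Every other member had reads in all 16.

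Cyr61 (ENSMUSG00000028195, GRCm38 chromosome 3, 145646976 to 145649981, minus strand) encodes a secreted protein that binds integrins. Its level in the order of replicates 1 to 4 was 38.8, 8.79, 13.2 and 43.6 FPKM in PH20_TG and 3.18, 6.36, 4.52 and 3.34 FPKM in PH20_WT. Every PH20_TG library lay above every PH20_WT library, and the library labelled PH20_TG1 and PH20_TG4 lay far above the other two. In the Has2 study the level was 11.7, 11.6, 4.07 and 13.7 FPKM in Has2_TG and 17.4, 4.09, 4.0 and 7.60 FPKM in Has2_WT. Those groups overlapped, and Has2_WT1, a control, was higher than PH20_TG2 and PH20_TG3. The log2 fold change was 2.30 (SE 0.51, 95% interval 1.14 to 3.47) in PH20_TG against PH20_WT, a fold of 4.94. It was 2.01 without the library labelled PH20_TG1, and 1.34 without both this library and PH20_TG4.

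Ctgf (ENSMUSG00000019997, chromosome 10, 24595442 to 24598683, plus strand) encodes a close relative of Cyr61 that is known for its part in fibrosis. Its level was 3.83, 1.32, 1.99 and 4.76 FPKM in PH20_TG and 1.53, 2.71, 1.03 and 0.644 FPKM in PH20_WT. The groups overlapped, and the same 2 PH20_TG libraries that were highest for Cyr61 were highest for Ctgf. In the Has2 study the level was 0.513, 1.45, 2.33 and 2.21 FPKM in Has2_TG and 1.41, 0.842, 0.741 and 1.08 FPKM in Has2_WT. Has2_TG1 was the lowest of all 16 libraries, and the other Has2_TG libraries lay above every Has2_WT library. The PH20 log2 fold change was 0.97 (SE 0.50, 95% interval -0.16 to 2.10), and it was 0.80 without the library labelled PH20_TG1 and 0.30 without both libraries. In GENCODE, 23.2% of the exonic bases of Ctgf are shared with the antisense gene Gm15270. Whether the authors counted by strand is not given in the sources used here, so Ctgf values are uncertain to that extent.

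Ankrd1 (ENSMUSG00000024803, chromosome 19, 36111965 to 36119844, minus strand) encodes an ankyrin repeat protein best known from stretched heart and skeletal muscle. It had 38, 4, 0 and 8 reads in PH20_TG, 0 reads in each PH20_WT and Has2_TG library, and 1 read in Has2_WT3. Most of its reads thus came from 1 library, the one labelled PH20_TG1. A count of 0 allows up to 3 reads in a library, a limit of 0.0941 FPKM on average in PH20_WT. The PH20_TG mean of 0.422 FPKM was 4.49-fold that limit. Without the library labelled PH20_TG1 the mean was 1.53-fold that limit and rested on 4, 0 and 8 reads. These ratios take the PH20_TG reads as exact, so they are not firm lower bounds. Ankrd1 had a mean of fewer than 50 reads in both studies and was not tested.

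Tnfrsf12a (ENSMUSG00000023905, chromosome 17, 23675445 to 23677468, minus strand) encodes the receptor of the cytokine TWEAK. Its level was 9.39, 7.81, 7.88 and 10.1 FPKM in PH20_TG and 2.71, 3.22, 4.85 and 5.00 FPKM in PH20_WT. All 4 PH20_TG libraries were high, they differed little among themselves, and the groups did not overlap. In the Has2 study the level was 3.41, 7.08, 4.45 and 3.57 FPKM in Has2_TG and 2.37, 4.93, 5.55 and 9.03 FPKM in Has2_WT, where Has2_WT4, a control, reached the range of PH20_TG. The PH20 log2 fold change was 1.17 (SE 0.22, 95% interval 0.68 to 1.67), a fold of 2.26. It was 1.14 without the library labelled PH20_TG1 and 1.02 without both this library and PH20_TG4, so it depended less on these libraries than the Cyr61 value did.

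Amotl2 (ENSMUSG00000032531, chromosome 9, 102716672 to 102733418, plus strand) encodes an angiomotin-family scaffold that can bind YAP at cell junctions. Its level was 30.0, 56.4, 50.3 and 33.0 FPKM in PH20_TG and 22.5, 41.3, 29.2 and 23.9 FPKM in PH20_WT. The groups overlapped, and the 2 PH20_TG libraries lowest in Cyr61, PH20_TG2 and PH20_TG3, were the highest in Amotl2. These 2 libraries also had the highest adipocyte scores of all libraries, 9.54 and 9.35. The part of adipocytes in the Amotl2 values was not tested. In the Has2 study the level was 48.1, 46.5, 30.9 and 49.1 FPKM in Has2_TG and 40.2, 47.5, 48.4 and 52.6 FPKM in Has2_WT. The PH20 log2 fold change was 0.53 (SE 0.26, 95% interval -0.07 to 1.12), and it was 0.68 without the library labelled PH20_TG1 and 0.91 without both this library and PH20_TG4. The PH20_WT controls were lower than the Has2_WT controls, with a log2 difference of -0.73 (SE 0.23). The PH20_TG libraries spanned a range that reached the level of the Has2_WT controls.

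Ajuba (ENSMUSG00000022178, chromosome 14, 54567472 to 54577558, minus strand), a LIM-domain scaffold that can restrain LATS kinases, was at 5.13 ± 2.13 FPKM in PH20_TG and 5.75 ± 0.208 FPKM in PH20_WT (SD, n = 4). Its PH20 log2 fold change was -0.25 (SE 0.26, 95% interval -0.83 to 0.34), or -0.05 without the library labelled PH20_TG1, which was the lowest of all 16 at 3.18 FPKM. Lats2 (ENSMUSG00000021959, chromosome 14, 57689662 to 57758388, minus strand), the kinase that phosphorylates YAP, was at 4.96 ± 0.349 FPKM in PH20_TG and 4.67 ± 0.842 FPKM in PH20_WT (SD, n = 4). Its PH20 log2 fold change was 0.10 (SE 0.15, 95% interval -0.25 to 0.45), the narrowest interval among the members in this comparison, and it was 0.08 without that library. In the Has2 study Ajuba was at 3.33 to 8.02 FPKM in Has2_TG and 4.67 to 9.28 FPKM in Has2_WT, and Lats2 was at 3.13 to 6.10 FPKM and 3.65 to 5.12 FPKM. In both genes the groups overlapped in both studies. In GENCODE, 42.4% of the exonic bases of Lats2 are shared with Gm49361 on the same strand, which had 0 reads in every library, so reads on the shared bases may be missing from both genes.

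**Figure D1:**
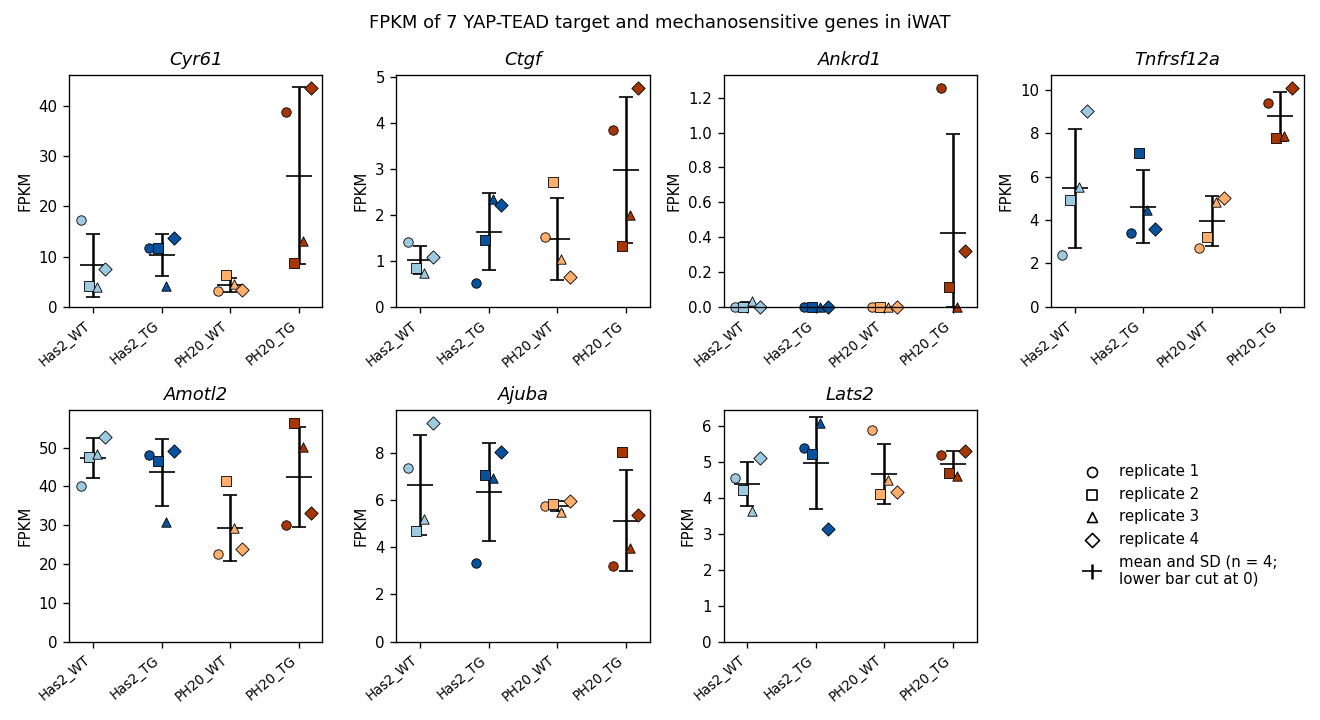
FPKM (vertical axis, linear from 0, a separate range for each gene) of the 7 members in the 4 groups, with 1 point per library, the marker shape giving the replicate number, and the mean and SD of 4 libraries in black. Cyr61 and Ctgf are carried upward in PH20_TG by replicates 1 and 4, Ankrd1 mainly by replicate 1, and Tnfrsf12a by all 4 replicates at 7.81 to 10.1 FPKM. Ajuba and Lats2 overlap across all groups.

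Has2_TG was compared with Has2_WT to ask what more adipocyte HA synthesis did to the iWAT transcriptome. Among the 6 members tested, 0 passed an unadjusted p under 0.05 in limma, in either direction, and all 6 overlapped between the groups. Of all 12606 genes tested, 6.25% were higher and 3.75% lower at this threshold, 0.103% passed after Benjamini-Hochberg adjustment, and 6.19% did not overlap. Cyr61 had a log2 fold change of 0.45 (SE 0.51, limma adjusted p = 0.832) and Ctgf one of 0.48 (SE 0.45, adjusted p = 0.787). It was -0.15 (SE 0.39, adjusted p = 0.936) for Tnfrsf12a, -0.13 (SE 0.18, adjusted p = 0.862) for Amotl2, -0.08 (SE 0.32, adjusted p = 0.964) for Ajuba and 0.14 (SE 0.23, adjusted p = 0.886) for Lats2. The 95% intervals ran from -0.70 to 1.60 for Cyr61, from -0.54 to 1.5 for Ctgf, from -1.02 to 0.71 for Tnfrsf12a and from -0.53 to 0.27 for Amotl2. A 2-fold rise of Cyr61 or Ctgf was thus inside its interval and a 2-fold fall outside it, while for Amotl2 both lay outside. The median over the 6 members was 0.03, beside -0.03 over all genes tested. Without Has2_TG1, the library with the lowest Ctgf, the log2 fold change of Ctgf was 0.92 and passed the unadjusted threshold.

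PH20_TG was compared with PH20_WT to ask the same of HA digestion. At an unadjusted p under 0.05, 2 of the 6 members tested, Cyr61 and Tnfrsf12a, were higher and 0 were lower, and these 2 were also the ones without overlap. Of all 12532 genes tested, 3.2% were higher and 3.39% lower, 4.54% did not overlap, and 0.0% passed after adjustment. Since this contrast chose members of the set, nothing is read from its count. The median log2 fold change of the 6 members was 0.75, beside 0.01 over all genes tested, and it was 0.74 without the library labelled PH20_TG1 and 0.60 without both this library and PH20_TG4.

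**Figure D2:**
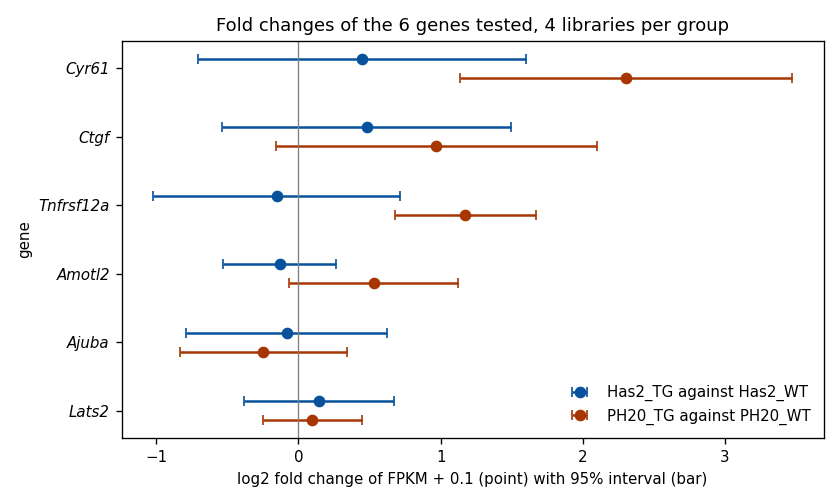
Log2 fold change of FPKM + 0.1 (horizontal axis) for the 6 members tested, with 95% intervals from limma and 4 libraries per group, in Has2_TG against Has2_WT (blue) and PH20_TG against PH20_WT (brown). The blue intervals all include 0, and the brown points of Cyr61, at 2.30, and Tnfrsf12a, at 1.17, lie farthest to the right.

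The difference between the 2 contrasts, fitted over all 16 libraries as PH20 minus Has2, was 1.86 (SE 0.79) on the log2 scale for Cyr61, 1.33 (SE 0.47) for Tnfrsf12a and 0.66 (SE 0.33) for Amotl2. It was 0.49 (SE 0.71) for Ctgf, -0.16 (SE 0.43) for Ajuba and -0.05 (SE 0.28) for Lats2. Without the library labelled PH20_TG1 it was 1.57 (SE 0.80) for Cyr61, 1.29 (SE 0.51) for Tnfrsf12a, 0.81 (SE 0.32) for Amotl2, 0.32 for Ctgf, 0.03 for Ajuba and -0.07 for Lats2. These values share the PH20 libraries that chose the set and are a description. For Cyr61 the log2 difference of PH20_WT from Has2_WT had the opposite sign, at -0.69 (SE 0.56, 95% interval -1.88 to 0.50). That interval included 0. Has2_WT1 was at 17.4 FPKM, and the other Has2_WT libraries, at 4.0 to 7.60 FPKM, overlapped PH20_WT, at 3.18 to 6.36 FPKM.

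Handling of tissue before RNA is fixed can switch on immediate early genes, whose transcripts rise within minutes of a stimulus. A list of 21 of them, among them Fos, Egr1 and Dusp1, was summarised as a score in each library. The score was 3.80 in the library labelled PH20_TG1 and 4.02 in PH20_TG4, and it was between 1.86 and 2.99 in the other 14 libraries. Egr1, an early transcription factor, was at 25.5, 5.31, 7.22 and 53.6 FPKM in PH20_TG and at 4.45 ± 0.816 FPKM (SD, n = 4) in PH20_WT. Fos was at 23.1, 1.5, 2.01 and 21.6 FPKM in PH20_TG and between 1.30 and 1.92 FPKM in PH20_WT. These genes were thus high in the same 2 PH20_TG libraries that held the highest Cyr61, Ctgf and Ankrd1. In Has2_WT1, where Cyr61 was the highest of its study at 17.4 FPKM, Egr1 was also the highest of its study at 20.2 FPKM. The score of Has2_WT1, 2.97, was the highest of that study too. Fos and Dusp1 were not highest there, at 2.34 and 15.4 FPKM, against 5.94 and 28.5 FPKM in Has2_TG1.

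The members did not all follow this score. Over 16 libraries, log2(FPKM + 0.1) of Cyr61 correlated with the score at r = 0.68 (rho = 0.40), and within the studies at r = 0.61 (Has2, n = 8) and r = 0.74 (PH20, n = 8). Without the 2 libraries farthest from the median score, PH20_TG1 and PH20_TG4, r for Cyr61 was 0.13 over the remaining 14, so the coefficient over all libraries rested on those 2. The Has2 study, with its r of 0.61, holds neither of them. Ctgf gave r = 0.66 (rho = 0.39), and 0.20 without them. Tnfrsf12a gave r = 0.24 (rho = -0.01), and -0.52 without them. Amotl2 had the opposite sign, with r = -0.48 (rho = -0.60), and -0.49 without them. Ajuba gave -0.35 and Lats2 0.39. These points share libraries and depth, and the coefficients are descriptions without a p. With the score as a covariate in the PH20 fit, the log2 fold change was 1.78 for Cyr61, 0.58 for Ctgf, 1.11 for Tnfrsf12a and 0.77 for Amotl2. The part of tissue handling itself in these values was not tested, since no label records it.

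**Figure D3:**
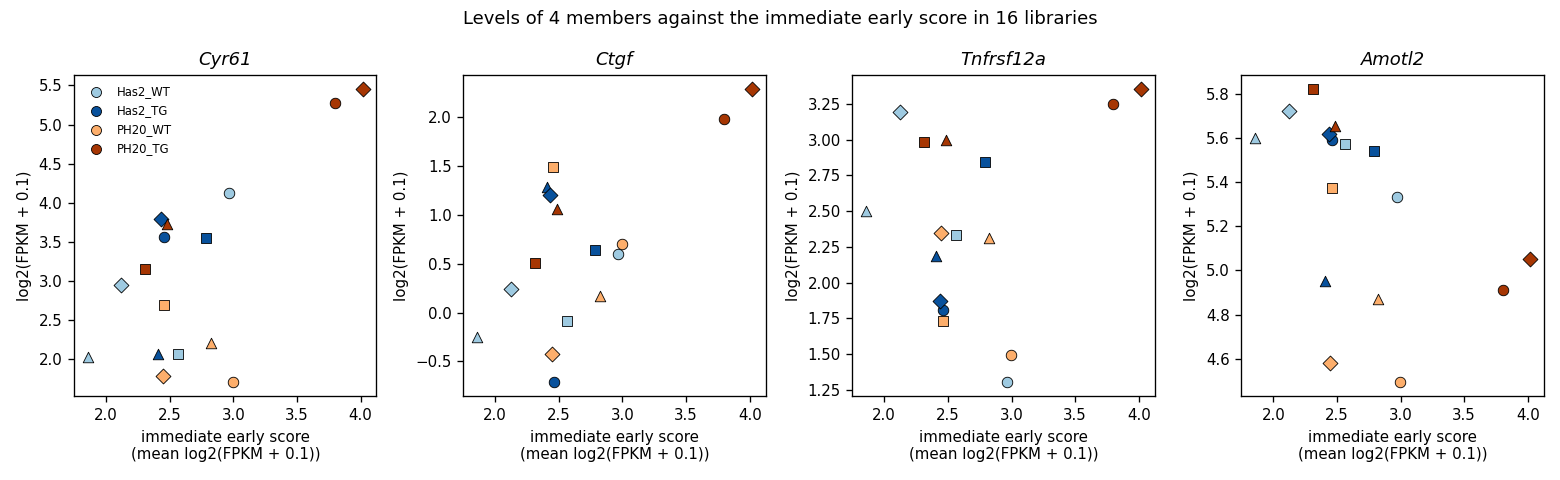
Log2(FPKM + 0.1) of Cyr61, Ctgf, Tnfrsf12a and Amotl2 (vertical axes, separate ranges) against the immediate early score (horizontal axis, mean log2(FPKM + 0.1) of 21 genes) in 16 libraries, with colour for the group and marker shape for the replicate number. The library labelled PH20_TG1 and PH20_TG4 stand apart at scores of 3.80 and 4.02, at the top for Cyr61 and Ctgf and in the lower part for Amotl2.

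In PH20_TG against PH20_WT, 2 of 21 immediate early genes passed the unadjusted threshold as higher and 1 as lower. Dusp1, a phosphatase of stress-activated kinases, had a log2 fold change of 1.58 (SE 0.41, limma adjusted p = 0.664), at 51.6, 17.4, 17.2 and 52.8 FPKM in PH20_TG against 7.54 to 12.5 FPKM in PH20_WT. Egr1 followed with 1.76 (SE 0.66, adjusted p = 0.703), and Gadd45b, a stress-induced growth arrest gene, had -1.46 (SE 0.43, adjusted p = 0.664). Without the library labelled PH20_TG1, Dusp1 had 1.32 and Gadd45b -1.54 and both passed, while Egr1 had 1.51 and did not. Dusp1 was also higher in PH20_TG2 and PH20_TG3 than in every PH20_WT library, as Cyr61 was, whereas Fos in these 2 libraries was in or near the PH20_WT range. In Has2_TG against Has2_WT, 3 of 20 passed as higher and 1 as lower. Klf4 had a log2 fold change of 1.40 (SE 0.17, limma adjusted p = 0.0384). Its adjusted p stayed under 0.05 in 6 of 20 other settings and ranged from 0.0129 to 0.340, with a log2 fold change of 1.28 to 1.51. In the same comparison Dusp1 had 0.88 (SE 0.19, adjusted p = 0.0912) and Fos 1.59 (SE 0.37, adjusted p = 0.111). Cyr61 did not pass in that comparison.

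Other lists bearing on handling were less uniform. Of the heat shock genes, 0 of 6 passed in the Has2 comparison and 0 of 7 in the PH20 comparison in limma. Their score was highest in the library labelled PH20_TG1 (4.04) and in PH20_TG4 (4.14), against 3.50 to 3.93 elsewhere. Hspa1a, an inducible gene at a low level, was at 1.73 and 1.70 FPKM in these 2 libraries and at most 0.93 FPKM in the others, whereas Hsph1 was the lowest of all 16 there, at 3.21 and 3.41 FPKM. In the PH20 comparison Hspa8 had a log2 fold change of -0.33 (SE 0.17), Hsph1 -0.32 (SE 0.18) and Dnajb1 0.13 (SE 0.14). In the Has2 comparison Hspb1 had 0.42 (SE 0.19), Hspa8 0.32 (SE 0.28) and Hspe1 -0.20 (SE 0.30). Of the glucocorticoid-induced genes, 1 of 6 passed in the PH20 comparison, namely Fkbp5, a chaperone of the glucocorticoid receptor, at 0.89 (SE 0.22, limma adjusted p = 0.664). Fkbp5 was at 4.55, 4.75, 3.76 and 6.63 FPKM in PH20_TG and 1.91 to 3.07 FPKM in PH20_WT, without overlap, as for Tnfrsf12a. In the Has2 study it was at 3.29 to 5.66 FPKM in Has2_WT and 2.45 to 4.83 FPKM in Has2_TG. Both of these ranges overlapped that of PH20_TG. The PH20 log2 fold change of Fkbp5 was 0.91 without the library labelled PH20_TG1. In the Has2 comparison 0 of 6 passed in limma, with Sgk1 at 0.47 (SE 0.22), Mt1 at 0.47 (SE 0.24) and Tsc22d3 at 0.35 (SE 0.21).

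Genes regulated by SRF, another factor that follows actin tension, were high in the same 2 libraries. Their score was 4.38 in the library labelled PH20_TG1 and 4.42 in PH20_TG4, against 3.40 to 3.92 elsewhere. Of the 16 SRF genes 10 had their highest value in one of these 2 libraries, as did 5 of the 17 other YAP-TEAD targets. Of 12593 genes tested over 16 libraries, 13.5% did. This was not particular to SRF genes, since 4 of 7 glucocorticoid-induced genes, 3 of 4 macrophage and 4 of 5 smooth muscle markers did so too. The smooth muscle list shares genes with the SRF list. It was so for 3 of 26 Hippo pathway genes and 0 of 9 skeletal muscle markers. Since the libraries were singled out by their immediate early and member values, these counts only describe them. In PH20_TG against PH20_WT, 0 of 13 SRF genes passed in limma, the nearest being the focal adhesion gene Vcl at 0.76 (SE 0.35), Tgfb1i1 at 0.49 (SE 0.23) and Acta2 at 0.87 (SE 0.43). Without both the library labelled PH20_TG1 and PH20_TG4, 0 of 13 passed as higher and 2 as lower, beside 702 and 1033 of all 12569 genes tested. The libraries left out were those with the high SRF scores, so nothing is read from these counts. In Has2_TG against Has2_WT, 2 of 13 passed as higher and 1 as lower. Zyx, which encodes the stress-fibre protein zyxin, had 0.95 (SE 0.22, limma adjusted p = 0.108), Tgfb1i1 had 0.43 (SE 0.18, adjusted p = 0.474) and Vcl had -0.56 (SE 0.24, adjusted p = 0.470).

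Another 17 genes known as YAP-TEAD targets were listed beside the members, and 15 could be tested. In Has2_TG against Has2_WT, 4 of 15 passed as higher and 0 as lower. Axl, a receptor tyrosine kinase, was at 57.1 ± 15.8 FPKM (SD, n = 4) in Has2_TG against 21.2 ± 9.45 FPKM in its controls, giving 1.48 (SE 0.30, limma adjusted p = 0.0838). Tgfb2, a growth factor of the transforming growth factor beta family, had 1.96 (SE 0.45, adjusted p = 0.108), and Nt5e, a surface enzyme that makes adenosine, had 1.19 (SE 0.30, adjusted p = 0.143). In PH20_TG against PH20_WT, 1 of 15 passed, the tissue factor gene F3 at 0.69 (SE 0.18, adjusted p = 0.664). Without the library labelled PH20_TG1, F3 had 0.76. Arhgef17 had 0.51 (SE 0.25) and Gadd45a -0.61 (SE 0.36) in that comparison. The median of the list was 0.12 in the Has2 comparison and 0.00 in the PH20 comparison. Axl was at 85.8, 12.8, 9.18 and 78.3 FPKM in PH20_TG, so within this group it was high in the same 2 libraries as Cyr61, but the group overlapped PH20_WT.

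Fibroblast progenitor markers were high in the same libraries as Axl. In Has2_TG against Has2_WT 6 of 6 of them passed as higher, and their score was 5.58 to 6.23 in Has2_TG and 3.77 to 4.96 in Has2_WT. Within PH20_TG the score was 6.06 in the library labelled PH20_TG1, 3.25 in PH20_TG2, 2.88 in PH20_TG3 and 6.04 in PH20_TG4, against 4.15 to 6.10 in PH20_WT. F3 did not share this pattern, with its highest PH20_TG value, 22.5 FPKM, in PH20_TG2. Without both the library labelled PH20_TG1 and PH20_TG4, 5 of the 6 markers passed as lower in PH20_TG, as did 3 of the 15 other targets. Of all 12569 genes tested then, 1033 were lower and 702 higher. The libraries left out were those with the high scores in PH20_TG, so this outcome was partly fixed by the choice and nothing is read from it. The part of progenitors in the values of Axl, Tgfb2 and Nt5e, and in those of Cyr61 and Ctgf, was not tested. In bulk tissue, fewer cells of a type and less RNA per cell cannot be told apart.

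**Figure D4:**
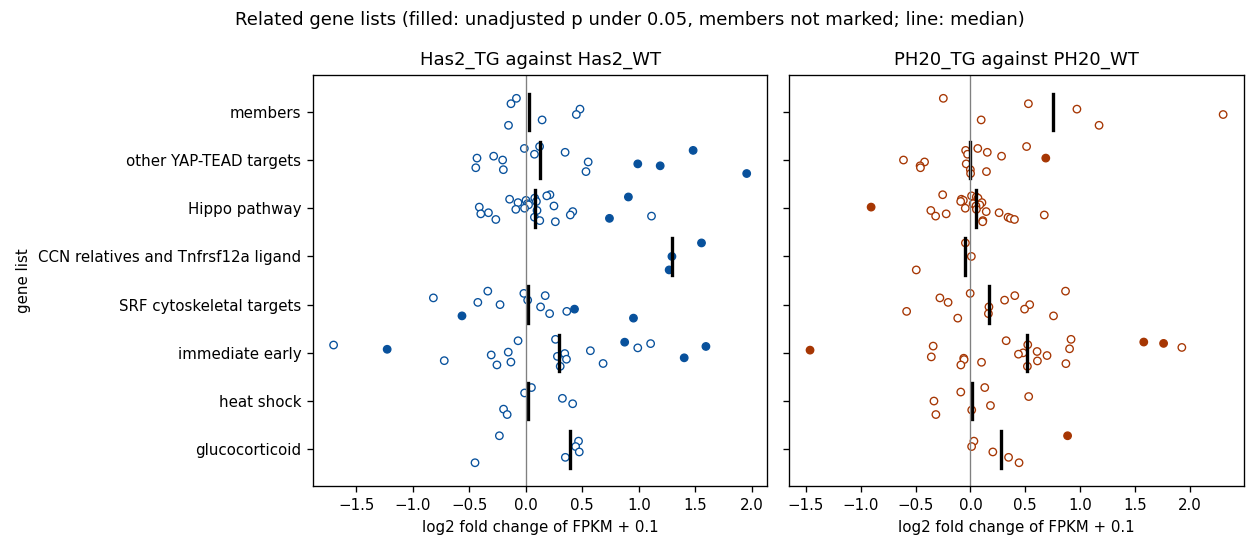
Log2 fold change of FPKM + 0.1 (horizontal axes) of each tested gene in the members and 7 related lists (rows), in Has2_TG against Has2_WT (left) and PH20_TG against PH20_WT (right), with black lines at list medians and filled points for an unadjusted p under 0.05, not marked for the members. The members have a median of 0.03 on the left and 0.75 on the right, and the other YAP-TEAD targets 0.12 and 0.00.

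The genes of the Hippo pathway, which carries the signal to YAP, passed the threshold about as often as all genes. In the Has2 comparison 2 of 25 passed as higher and 0 as lower, beside 6.25% and 3.75% of all genes, with a median of 0.08. Frmd6, a scaffold upstream of the kinases, had 0.91 (SE 0.28, limma adjusted p = 0.266), Wtip, a relative of Ajuba, had 0.74 (SE 0.31, adjusted p = 0.462), and Vgll3, a TEAD cofactor, had 1.11 (SE 0.52, adjusted p = 0.534) without passing. In the PH20 comparison 0 of 25 passed as higher and 1 as lower, beside 3.2% and 3.39%, with a median of 0.05. This was Stk4, the kinase MST1, at -0.91 (SE 0.32, limma adjusted p = 0.702), or -1.02 without the library labelled PH20_TG1. Stk4 was highest in Has2_WT1 at 18.7 FPKM and PH20_WT1 at 18.2 FPKM, the libraries with the highest B cell scores, 5.27 and 5.12, and the part of B cells in it was not tested. Wtip had 0.36 (SE 0.17) and Wwc2 0.40 (SE 0.23) in that comparison.

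The 3 relatives that could be tested, 2 of the CCN family of Cyr61 and Ctgf and the ligand of Tnfrsf12a, passed in the Has2 comparison, in which no member did. In the Has2 comparison 3 of 3 passed as higher. Nov had 1.56 (SE 0.43, limma adjusted p = 0.209), Wisp2 had 1.27 (SE 0.45, adjusted p = 0.364) and Tnfsf12, which encodes TWEAK, had 1.29 (SE 0.42, adjusted p = 0.306). In the PH20 comparison 0 of 3 passed in limma, with Nov at -0.05 (SE 0.77), Wisp2 at -0.49 (SE 0.64) and Tnfsf12 at 0.01 (SE 0.33). Nov was at 4.23, 0.70, 0.58 and 5.50 FPKM in PH20_TG, high where the fibroblast progenitor score was high. Without both the library labelled PH20_TG1 and PH20_TG4, 3 of 3 passed as lower, beside 1033 of all 12569 genes tested. Leaving out the libraries with high Nov partly fixed this outcome, and nothing is read from it. In the Has2 comparison the fibroblast progenitor score was likewise higher in every Has2_TG library, and its part in Nov, Wisp2 and Tnfsf12 was not tested.

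Markers of other cell types differed between the PH20 groups as well. Skeletal muscle markers were lower in PH20_TG, where 8 of 9 passed as lower with a median log2 fold change of -4.02, and their score was -1.36 to 4.01 in PH20_TG and 3.82 to 5.83 in PH20_WT. The muscle score was -0.15 in the library labelled PH20_TG1, which had 38 reads of Ankrd1, a gene also made by muscle, and 4.01 in PH20_TG4, which had 8. With this score as a covariate the log2 fold change of Cyr61 was 3.50 and that of Ctgf 2.0. Since the muscle score nearly separates the PH20 groups, this fit can hardly tell it from the group, and no larger effect is read from these values. At the unadjusted threshold 179 genes were higher and 99 lower in this fit, against 401 and 425 without the covariate. B cell markers had 4 of 6 lower, with scores of -2.04 to -1.14 in PH20_TG and -1.27 to 5.12 in PH20_WT. Smooth muscle markers had 1 of 3 lower, Des, while the other 2 were higher without passing, and the median log2 fold change was 0.59. The smooth muscle score was 1.17 to 2.82 in PH20_TG and 1.05 to 2.42 in PH20_WT. Endothelial and adipocyte markers had 0 of 6 past the threshold in either comparison in limma. In the PH20 comparison 6 of 6 adipocyte markers were higher without passing, with a median log2 fold change of 0.36. Without both the library labelled PH20_TG1 and PH20_TG4, 3 of 6 adipocyte markers passed as higher, beside 702 of all 12569 genes tested. The libraries left out had the lowest adipocyte scores in PH20_TG, so nothing is read from that count. Macrophage markers had 3 of 4 higher in Has2_TG and 0 of 4 past the threshold in PH20_TG, where the library labelled PH20_TG1 had the highest score of all, 5.92. Without that library 4 of 4 macrophage markers, 2 of 6 B cell markers and 7 of 9 skeletal muscle markers passed as lower, and 1 of 6 endothelial and 1 of 6 adipocyte markers as higher. Of all 12510 genes tested then, 611 were lower and 559 higher. The mesothelial markers Msln, Upk3b and Wt1 had no read in 15, 13 and 14 of the 16 libraries. The part of these cell types in the members' values was not tested.

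The members did not vary as 1 unit within groups. Over the deviations of log2(FPKM + 0.1) from the group means in 16 libraries, the 15 pairs of the 6 members tested had coefficients from -0.47, for Amotl2 and Lats2, to 0.47, for Cyr61 and Ctgf. Cyr61 and Tnfrsf12a, the members without overlap in the PH20 comparison, had -0.16. The 5 genes of 12593 most like Cyr61 by the same measure were Rsbn1 (r = 0.88), Flvcr1 (0.85), Hs3st1 (0.84), Fos (0.84) and Arrdc4 (0.83), and none of them is a member.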

How the data were processed

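Male littermates were studied, and RNA was sequenced from 16 iWAT libraries, 4 per group. The authors aligned reads to GRCm38 with STAR (version 2.7.9a), counted reads per gene with STAR, tested them with DESeq2 and deposited FPKM per gene with gene lengths. The counting's strand setting is not given in the sources used here. Deposited FPKM values carry the authors' scaling, since the ratio of the total implied by them to the summed reads was 0.886 to 1.14. Reads were recovered from FPKM, gene length and that total, and 100% of values came out whole within 0.01. Such reads set the filter and the limit of 3 reads that a count of 0 allows, and intervals and limits of this kind cover counting error only. In 120 library pairs, chi-square over genes was at least 28.7 for each degree of freedom, so no library was taken as a copy of another.

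The values are FPKM, so limma (version 3.58.1, R version 4.3.3) was used on log2(FPKM + 0.1) with a variance trend, two-sided, on the 8 libraries of each study, where the mean was 50 reads or more. Fold changes are on this scale and understate those of low genes. A call is an unadjusted p under 0.05, the study's threshold, and adjusted p-values are Benjamini-Hochberg over all genes tested. The procedure was tested on simulated data. The members and all lists were chosen with earlier results of these data known. Named genes are the members, the 3 genes with the smallest limma p in each related list and comparison, the 5 most like Cyr61 and the cell type markers. Gene positions come from the deposited table, shared exonic bases from GENCODE M21 and promoter windows from RefSeq. Other settings tried were no variance trend, voom weights, quantile normalization, scaling by median of ratios, a pseudocount of 1, a minimum mean FPKM of 1, no read minimum, 1 fit over 16 libraries, a replicate block, covariates (immediate early, skeletal muscle or B cell score) and leaving out each library in turn. Leaving out both PH20_TG1 and PH20_TG4, leaving PH20_TG1 out of the related lists and of the difference between the comparisons, and running Klf4 through all settings were chosen after seeing the data.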

Additional observations from a re-analysis of the deposited data

Results flagged for a closer look

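Among 28 values of a member in a group, 2 had a library far from the other 3 by Dixon's criterion, which chance alone meets in about 1 in 20 groups. Amotl2 was at 30.9 FPKM in Has2_TG3, while the other Has2_TG libraries were at 46.5 to 49.1 FPKM. Ankrd1 was at 0.0334 FPKM in Has2_WT3, which is 1 read, while the other Has2_WT libraries had 0 reads. With the other 3 at 0, any read meets the criterion, so the stated rate does not apply to Ankrd1 and nothing is read from its flag.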

How the results depend on the processing

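In PH20_TG against PH20_WT, the log2 fold change of Cyr61 ranged from 1.78 to 3.50 over the other settings with all libraries and that of Tnfrsf12a from 0.98 to 1.37, and with single libraries left out they ranged from 1.96 to 2.72 and from 1.01 to 1.30. These values chose the set and are no sign of stability. The number of members past the threshold in either direction was 2 to 4 with single libraries left out, and 4 without PH20_WT2 or without PH20_TG2. Ajuba, at -0.487 without PH20_TG2, passed as lower. Of all 12577 genes tested without PH20_WT2, 500 were higher and 655 lower, and of 12552 without PH20_TG2, 303 and 279. Since this contrast chose the set, nothing is read from these counts. In Has2_TG against Has2_WT the number of members was 0 to 1, with the 1 being Ctgf without Has2_TG1. Values near 0 in the Has2 comparison changed sign. Tnfrsf12a was 0.0509 with the immediate early score as a covariate, and with single libraries left out it was -0.494 to 0.134, positive without Has2_WT4. With single libraries left out, Ajuba was -0.230 to 0.196, positive without Has2_WT4 or Has2_TG1, and Amotl2 was -0.205 to 0.0272, positive without Has2_TG3. Whether the replicate numbers pair the libraries was not settled. Same-numbered libraries correlated at -0.18 to 0.13 in the Has2 study and at -0.04 to 0.42 in the PH20 study. PH20_WT1, PH20_WT2 and Has2_WT2 correlated most with the same-numbered transgenic library, at 0.35, 0.42 and 0.13. The other controls correlated most with a transgenic library of another number. With a replicate block, 3 members passed in the PH20 comparison, Amotl2 at 0.53 being the third, and 0 in the Has2 comparison. Without both PH20_TG1 and PH20_TG4 the values were 1.34 for Cyr61, 0.30 for Ctgf, 1.02 for Tnfrsf12a and 0.91 for Amotl2. Over all genes, 13 passed after adjustment in the Has2 comparison, against 0 with no read minimum, a minimum mean FPKM of 1, quantile normalization, all 16 libraries, the replicate block, no variance trend or any single library but Has2_WT4 left out, 138 higher and 3 lower without Has2_WT4, and 88 higher and 103 lower with the immediate early score as a covariate. In the PH20 comparison 0 passed, against 3 higher and 18 lower with that covariate and 0 higher and 4 lower without both PH20_TG1 and PH20_TG4. At the unadjusted threshold the PH20 comparison had 401 genes higher and 425 lower, against 633 and 669 with the replicate block, 874 and 1132 with the immediate early score, 179 and 99 with the skeletal muscle score, and 702 and 1033 without both libraries. Ankrd1 had too few reads for a fit and has no alternative values. Causes of these shifts were not tested.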
